A study of Rattus norvegicus with 12 samples.

Results

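The genes described here were 10 inflammatory chemokines and cytokines: Cxcl10, Cxcl9, Cxcl11, Cxcl1, Ccl2, Ccl5, Ccl7, Ccl12, Il6 and Csf1. All 10 were found by symbol among the 16468 genes listed for each growth condition. They were chosen by measured values, since earlier results of the same REST knockdown and control samples were known when the set was drawn up. The knockdown values of these genes are therefore a description and carry no test.

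The samples were HCN cells, a neural stem cell line cloned from the adult rat hippocampus. In iQNP conditions the medium held FGF2 and BMP4, which makes the cells quiescent. In TAP conditions it held FGF2 without BMP4, and the cells proliferate. In each condition, 2 control libraries came from cells electroporated with the empty vector and 4 libraries from cells electroporated with a vector that expresses a short hairpin RNA against Rest, giving 12 RNA-seq libraries. They were made from total RNA after ribosomal RNA had been removed. The control cells received no hairpin, so the presence of a hairpin and the loss of REST cannot be told apart in either condition. The labels do not say whether libraries of a group came from separate cultures. All values come from one cell line.

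For each gene and group there was a single FPKM (fragments mapped to a gene, scaled by transcript length and by the number of mapped fragments), computed by the authors over all libraries of the group. No spread between libraries, no sequencing depth and no test could be obtained from these values, and none is given. Differences are given as plain folds, or as log2 ratios, meaning log2((knockdown FPKM + 1)/(control FPKM + 1)), which understate the change of genes with low levels. A gene was counted as 2-fold higher or lower at a log2 ratio of at least 1 or at most -1. An FPKM of 0 is written as listed at 0, without a fold, because Mcl1 and Khsrp, which most cells express, were also listed at 0 in all 4 groups.

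Chemokines are small secreted proteins that attract leukocytes along a gradient. They are named by the spacing of their first cysteines, and act through G-protein-coupled receptors on the attracted cell. Cxcl9, Cxcl10 and Cxcl11 share the receptor Cxcr3 and draw activated T cells and natural killer cells, and Cxcl1 draws neutrophils through Cxcr2. Ccl2, Ccl7 and, in the mouse, Ccl12 draw monocytes through Ccr2, whereas the receptors of Ccl5 include Ccr1 and Ccr3. Il6 signals through Il6r and the shared subunit gp130 (Il6st) to STAT3, and Csf1 maintains macrophages and microglia through Csf1r. Many of these genes are switched on by NF-kB, by interferon-regulated factors or by both, and REST itself represses genes that carry an RE1 element.

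Promoter sequences from RefSeq (assembly GRCr8, a later build than the rn4 used for expression) were matched by symbol for 7 of the 10 genes, namely Il6, Ccl7, Ccl12, Cxcl11, Cxcl10, Cxcl9 and Cxcl1. The 250 bases before the annotated start are printed 5′ to 3′ for 5 of them. Cxcl10, Cxcl11 and Cxcl9 lie next to each other and differed in their response, Ccl7 had the highest log2 ratio in iQNPs of the genes above 0 in both groups, and Il6 is the cytokine of the set that was listed at 0 in both controls. Capitals mark matches on either strand to GGANNTTCC, a core of NF-kB binding sites, or to GAAANNGAA, a core of interferon-stimulated response elements.
Cxcl10 (chr14:15988816-15989065, plus strand): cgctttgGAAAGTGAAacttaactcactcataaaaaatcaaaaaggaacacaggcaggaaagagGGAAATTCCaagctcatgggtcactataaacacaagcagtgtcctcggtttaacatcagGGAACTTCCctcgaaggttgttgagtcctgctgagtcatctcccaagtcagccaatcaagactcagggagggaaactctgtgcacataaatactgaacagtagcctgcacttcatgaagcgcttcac
Cxcl11 (chr14:15973478-15973727, plus strand): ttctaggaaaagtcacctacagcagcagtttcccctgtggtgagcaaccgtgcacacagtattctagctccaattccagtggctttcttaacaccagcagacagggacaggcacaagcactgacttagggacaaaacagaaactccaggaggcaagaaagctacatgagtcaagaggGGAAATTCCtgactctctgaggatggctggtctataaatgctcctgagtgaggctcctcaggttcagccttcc
Cxcl9 (chr14:16006916-16007165, plus strand): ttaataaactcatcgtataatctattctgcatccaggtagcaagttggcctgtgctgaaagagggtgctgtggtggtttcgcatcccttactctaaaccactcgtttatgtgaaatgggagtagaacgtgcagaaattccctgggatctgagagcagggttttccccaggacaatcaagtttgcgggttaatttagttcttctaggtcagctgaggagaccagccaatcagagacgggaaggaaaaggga
Ccl7 (chr10:67513845-67514094, plus strand): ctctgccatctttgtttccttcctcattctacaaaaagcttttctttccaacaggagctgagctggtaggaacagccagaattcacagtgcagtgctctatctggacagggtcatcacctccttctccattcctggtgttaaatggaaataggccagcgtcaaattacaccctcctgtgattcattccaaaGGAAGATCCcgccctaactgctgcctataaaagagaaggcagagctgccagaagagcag
Il6 (chr4:5894576-5894825, minus strand): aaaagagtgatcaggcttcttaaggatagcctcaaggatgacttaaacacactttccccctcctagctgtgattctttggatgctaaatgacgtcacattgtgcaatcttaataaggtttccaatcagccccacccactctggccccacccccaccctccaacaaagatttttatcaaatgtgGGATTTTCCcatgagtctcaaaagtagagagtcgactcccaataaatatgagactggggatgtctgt

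The NF-kB core GGANNTTCC was present on one or both strands in 6 of the 7 promoters, against 3.36% of 33469 promoters of the same length. This pattern was chosen after the promoters had been read, so the share of the 7 is a description of these letters and not of binding. Cxcl10 held it at 186 to 178 and again at 127 to 119 bases before the start, and also held the interferon element core at 243 to 235 bases before the start. That second core was in 1 of the 7 promoters and in 8.12% of all promoters. Cxcl11 held the NF-kB core at 73 to 65 bases, Il6 at 67 to 59 bases and Ccl7 at 59 to 51 bases before the start. The promoters not printed held it too, as GGAATTTCC in Cxcl1, at 83 to 75 bases, and as GGAGCTTCC in Ccl12, at 27 to 19 bases. Cxcl9 was the 1 promoter of the 7 with no match to this core. Other forms of the NF-kB site were not searched, so no lack of a site in Cxcl9 is read from this. A core bound by STAT factors, TTCNNNGAA, was matched in Cxcl11 only among the 7 and in 7.67% of all promoters. The left part of the RE1 element, TTCAGCACC, and its right part, GGACAGCGC, were matched in 0 of the 7 promoters. They are rare in windows of this length, at 0.305% and 0.338% of all promoters, so that 0 of 7 says little, and sites further from the start were not searched.

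Rest itself was lower in the knockdown groups. Its level was 48.7 FPKM in iQNP controls and 13.9 FPKM in iQNP knockdown, which is 71.5% lower. In TAPs it was 27.8 FPKM in controls and 9.0 FPKM in knockdown, 67.6% lower. The cultures carried most of the marker genes of neural stem cells looked for. Of 10 listed, 8 were at 1 FPKM or more in iQNP controls and 9 in each other group. Sox2 was between 172 and 278 FPKM, Vim between 1220 and 3671 FPKM and Nes between 87.7 and 150 FPKM over the 4 groups. Prom1 did not exceed 0.19 FPKM, Hes5 2.29 FPKM and Pax6 4.69 FPKM.

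Most of the 10 genes were higher after REST knockdown. In such bulk RNA, more cells that express a gene and more RNA per cell cannot be told apart. In iQNPs, 7 of 10 were at least 2-fold higher (Cxcl10, Cxcl11, Ccl2, Ccl5, Ccl7, Ccl12 and Il6) and 0 were 2-fold lower. Over all listed genes, 8.57% were 2-fold higher and 1.89% were 2-fold lower. In TAPs, 5 of 10 were 2-fold higher (Cxcl10, Ccl2, Ccl5, Ccl7 and Ccl12) and 0 were lower, against 8.93% higher and 4.06% lower over all listed genes. The median log2 ratio of the 10 genes was 1.81 in iQNPs and 0.80 in TAPs, beside a median of 0 over all listed genes in each condition. Nothing is read from these shares, because the same contrasts were known when the genes were chosen.

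The counts include genes listed at 0 in a control. With those left out, 5 of 8 genes in iQNPs and 3 of 7 in TAPs were 2-fold higher, beside 11.2% of all genes above 0 in both groups in each condition. At 4-fold, the counts were 5 of 10 in iQNPs and 2 of 10 in TAPs, beside 2.42% and 2.33% of all listed genes. When the FPKM of the groups were scaled to the same sum, the log2 ratios of expressed genes shifted by a median of -0.50 in iQNPs and -0.58 in TAPs, Ccl2 in TAPs was then no longer 2-fold higher (log2 ratio 0.59), and Cxcl9 in iQNPs was 2-fold lower (log2 ratio -1.05).

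**Figure D1:**
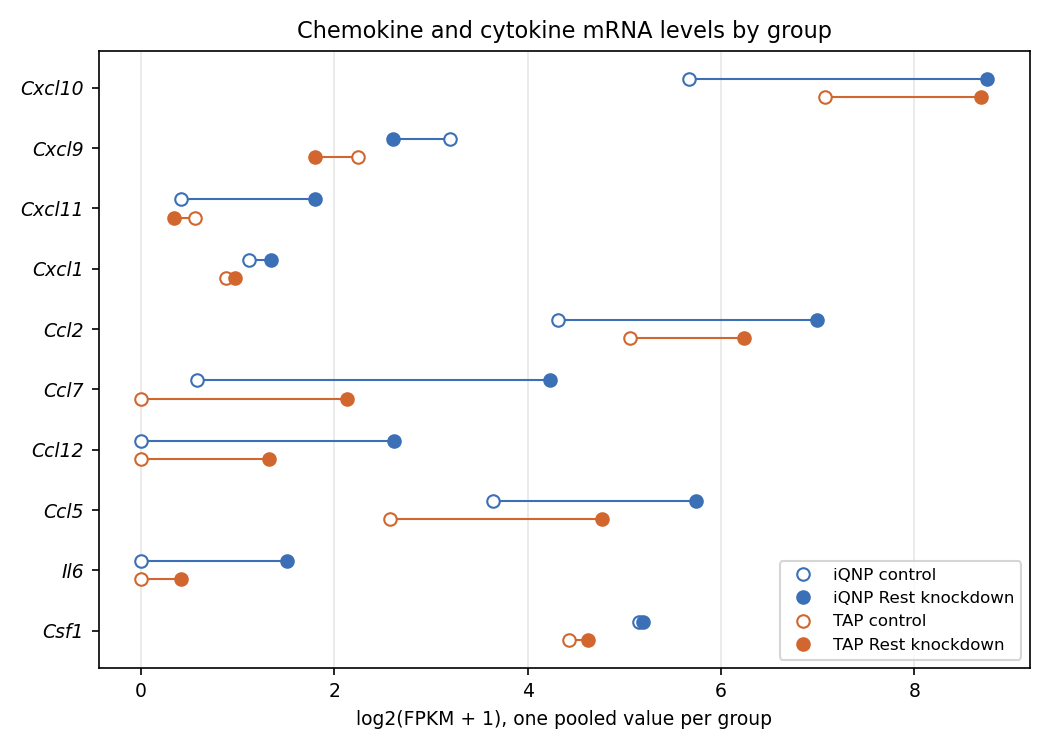
Levels of the 10 genes as log2(FPKM + 1), with open circles for control and filled circles for REST knockdown in iQNPs (blue) and TAPs (orange); each point is the authors' single value for a group, so there are no error bars. Cxcl10 reached 431 and 413 FPKM in the knockdown groups, while Cxcl9 was lower in knockdown than in control in both conditions and Csf1 moved little.

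Of the Cxcr3 ligands, Cxcl10 was the abundant one. It was listed at 50.0 FPKM in iQNP controls, 431 FPKM in iQNP knockdown, 134 FPKM in TAP controls and 413 FPKM in TAP knockdown. The knockdown level was 8.62-fold the control level in iQNPs and 3.09-fold in TAPs, with log2 ratios of 3.08 and 1.62. The 2 knockdown levels stood close together, and the 2 control levels did not. In iQNP controls 14.7% of all listed genes stood above Cxcl10, and in iQNP knockdown 2.05% did. The corresponding shares in TAPs were 5.18% and 1.85%. Cxcl10 alone made up 40.0% of the summed FPKM of the 10 genes in iQNP controls, 63.4% in iQNP knockdown, 68.0% in TAP controls and 75.6% in TAP knockdown.

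Cxcl11, a second Cxcr3 ligand, was scarce throughout. Its levels were 0.33 FPKM in iQNP controls, 2.48 FPKM in iQNP knockdown, 0.48 FPKM in TAP controls and 0.27 FPKM in TAP knockdown. It was thus 7.53-fold higher after knockdown in iQNPs (log2 ratio 1.39) and not higher in TAPs (log2 ratio -0.21). The TAP values were marked in the authors' table as too low for their test.

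Cxcl9, the third ligand of this receptor, went the other way from Cxcl10. Its levels were 8.16 FPKM in iQNP controls, 5.07 FPKM in iQNP knockdown, 3.73 FPKM in TAP controls and 2.47 FPKM in TAP knockdown. The control level was 1.61-fold the knockdown level in iQNPs and 1.51-fold in TAPs, with log2 ratios of -0.59 and -0.44. Cxcl9 and Cxcl10 therefore differed in direction within each condition. Before knockdown, in iQNP controls, Cxcl9 was the fifth of the 10 genes by level, above Cxcl1, Ccl7 and Cxcl11.

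The 3 ligands lie together on chromosome 14 in rn4. Cxcl10 and Cxcl11 were both listed at chr14:17198268-17280642, an interval they share with Art3, and Cxcl9 follows 3442 bases further on at chr14:17284085-17288996. Art3, an ADP-ribosyltransferase gene, was at 7.76, 9.56, 7.99 and 3.41 FPKM in iQNP control, iQNP knockdown, TAP control and TAP knockdown, in that order. Its log2 ratios were 0.27 and -1.03, unlike those of Cxcl10. Whether counting used strand is not given in the sources used here, so reads of overlapping genes in this interval may be divided wrongly among Art3, Cxcl10 and Cxcl11. On the far side of Cxcl9, Sdad1 had log2 ratios of -0.51 and -0.35, Naaa -0.15 and -0.96 and Ppef2 0.14 and -0.10. On the other side, Nup54, a nuclear pore gene, had log2 ratios of -0.36 and -0.44, and Scarb2, a lysosomal membrane receptor gene, had -0.77 and -1.05. Cxcl10 in both conditions and Cxcl11 in iQNPs were thus the genes of this neighbourhood with a log2 ratio above 1.

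Cxcl1, at chr14:18690339-18692118, differed little between groups. Its levels were 1.17 FPKM in iQNP controls, 1.55 FPKM in iQNP knockdown, 0.83 FPKM in TAP controls and 0.97 FPKM in TAP knockdown, with log2 ratios of 0.23 and 0.10. The TAP values of Cxcl1 were marked as too low for the authors' test. Its neighbour Cxcl2, which also attracts neutrophils, was at 0.21, 1.30, 0 and 0.67 FPKM in the same order of groups, and Cxcl3 was under 0.04 FPKM in each group.

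The CC chemokines Ccl2, Ccl7 and Ccl12 were higher after knockdown in both conditions. Ccl2, the main monocyte attractant of the family, was listed at 18.8 FPKM in iQNP controls, 126 FPKM in iQNP knockdown, 32.3 FPKM in TAP controls and 74.5 FPKM in TAP knockdown. Both knockdown levels stood above both control levels. The fold was 6.70 in iQNPs and 2.31 in TAPs, with log2 ratios of 2.68 and 1.18.

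Ccl7, which shares the receptor Ccr2 with Ccl2 and also binds Ccr1 and Ccr3, was at 0.49 FPKM in iQNP controls and 17.7 FPKM in iQNP knockdown. In TAPs it was listed at 0 in controls and at 3.38 FPKM in knockdown. The fold in iQNPs was 35.9, from a control level under 1 FPKM, and the log2 ratios were 3.65 and 2.13. Ccl12 was listed at 0 in both controls, at 5.14 FPKM in iQNP knockdown and at 1.5 FPKM in TAP knockdown, with log2 ratios of 2.62 and 1.32. Ccl2, Ccl7 and Ccl12 kept this order of level in each group in which they were above 0.

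These 3 genes lie in 1 cluster on chromosome 10, Ccl2 at chr10:70256263-70258061, Ccl7 at chr10:70267281-70269131 and Ccl12 at chr10:70321036-70322586. The gap between Ccl2 and Ccl7 is 9219 bases. Ccl11, which attracts eosinophils, sits between Ccl7 and Ccl12 and was at 0.23 FPKM in iQNP controls, listed at 0 in iQNP knockdown, at 0.73 FPKM in TAP controls and at 0.38 FPKM in TAP knockdown. Ccl1, beyond Ccl12, was listed at 0 in all 4 groups. The ion channel gene Accn1, 65957 bases from Ccl2, had log2 ratios of 0.51 and -0.21. A log2 ratio above 1 was therefore seen at Ccl2, Ccl7 and Ccl12 and not at the genes between and beside them. Of these, Ccl11 and Ccl1 were under 1 FPKM in each group and could show little change on this scale.

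**Figure D2:**
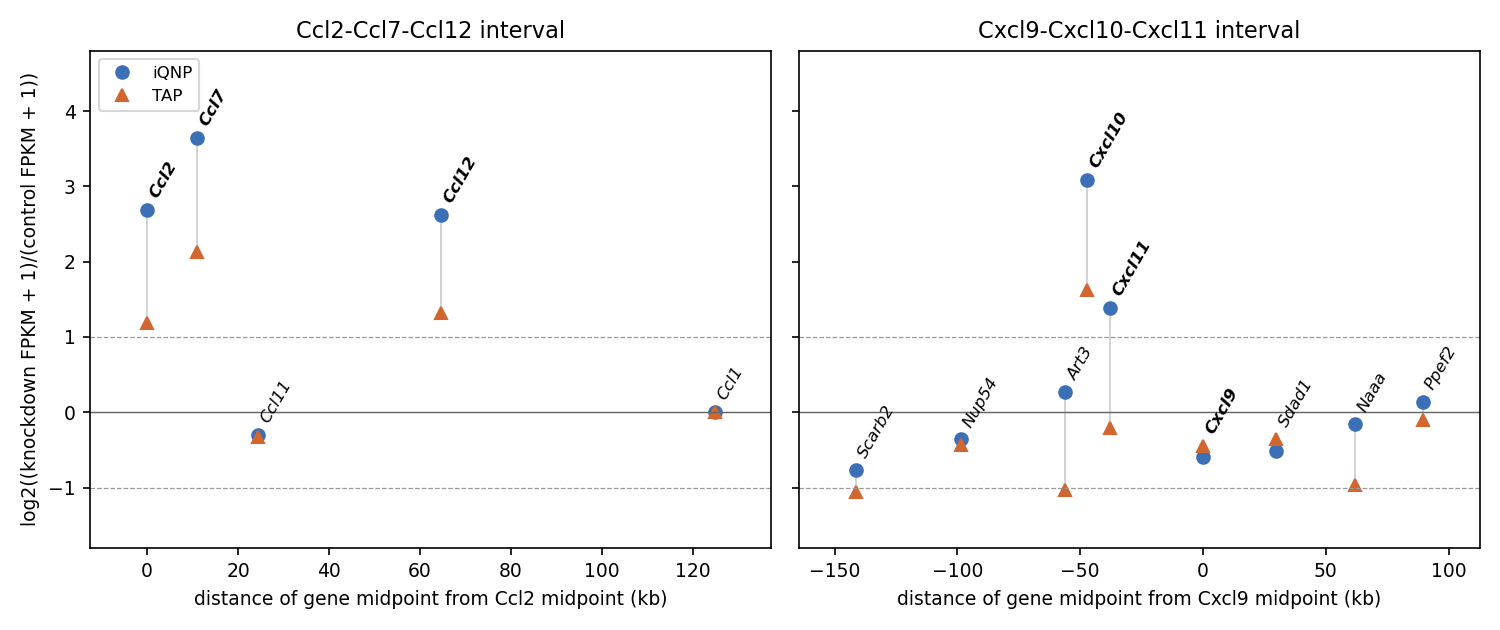
Log2 ratio of knockdown to control in iQNPs (circles) and TAPs (triangles) for genes around Ccl2 (left) and Cxcl9 (right), by distance of the gene's midpoint in kb; dashed lines mark log2 ratios of 1 and -1. Cxcl10, Cxcl11 and Art3 share 1 listed interval and are drawn side by side, and Accn1 and RGD1560058, whose shared interval reaches far to the left of Ccl2, are not drawn. Ccl2, Ccl7, Ccl12 and Cxcl10 lie above the upper line in both conditions and Ccl11, Ccl1 and Cxcl9 do not.

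Ccl5, which attracts T cells and monocytes, had similar log2 ratios in the 2 conditions. It was listed at 11.5 FPKM in iQNP controls, 52.6 FPKM in iQNP knockdown, 4.95 FPKM in TAP controls and 26.3 FPKM in TAP knockdown. The fold was 4.57 in iQNPs and 5.32 in TAPs, with log2 ratios of 2.10 and 2.20. Ccl5 lies at chr10:71605792-71610330. Its neighbours Ccl9 and Ccl6 were at or near 0 in each group, the RNA-binding protein gene Taf15 had log2 ratios of -0.28 and -1.06, the matrix metalloproteinase gene Mmp28 had 0.79 and 0.65, and Gas2l2 had -0.07 and -0.01.

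Over the 19 other genes listed within 100 kb of any of the 10, 0 were 2-fold higher in either condition. In iQNPs 0 were 2-fold lower, and in TAPs 3 were, namely Taf15, Art3 and Scarb2. The shares over all listed genes were 8.57% higher and 1.89% lower in iQNPs, and 8.93% and 4.06% in TAPs. Beside such shares, 0 higher of 19 says little. Of the 19, 8 were under 1 FPKM in all 4 groups and could show little change on this scale.

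The cytokine Il6, at chr4:456799-461376, was listed at 0 in both controls. It was at 1.86 FPKM in iQNP knockdown and 0.33 FPKM in TAP knockdown, with log2 ratios of 1.51 and 0.41. The TAP value was marked as too low for the authors' test. Csf1, at chr2:203292765-203307947, was expressed in every group and differed little with knockdown. Its levels were 34.5 FPKM in iQNP controls, 35.7 FPKM in iQNP knockdown, 20.5 FPKM in TAP controls and 23.6 FPKM in TAP knockdown, with log2 ratios of 0.05 and 0.19. Its neighbour Ahcyl1 had log2 ratios of 0.09 and 0.25.

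The 10 genes separated by how their response compared between the growth conditions. For Cxcl10, Cxcl11, Ccl2, Ccl7, Ccl12 and Il6 the log2 ratio was smaller in TAPs than in iQNPs by 1.10 to 1.60. Ccl7 was listed at 0 in TAP controls, so its ratio there is set by the pseudocount, and with a pseudocount of 0.1 its log2 ratio was larger in TAPs, at 5.12 against 4.91 in iQNPs. For Ccl5, Csf1, Cxcl9 and Cxcl1 the 2 log2 ratios were within 0.15 of each other. A log2 ratio smaller in TAPs by at least 1 was found in 1.65% of all listed genes, and one larger by at least 1 in 0.826% of them and in 0 of the 10. With 1 value per group this difference between conditions could not be tested, and both contrasts were known when the genes were chosen.

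**Figure D3:**
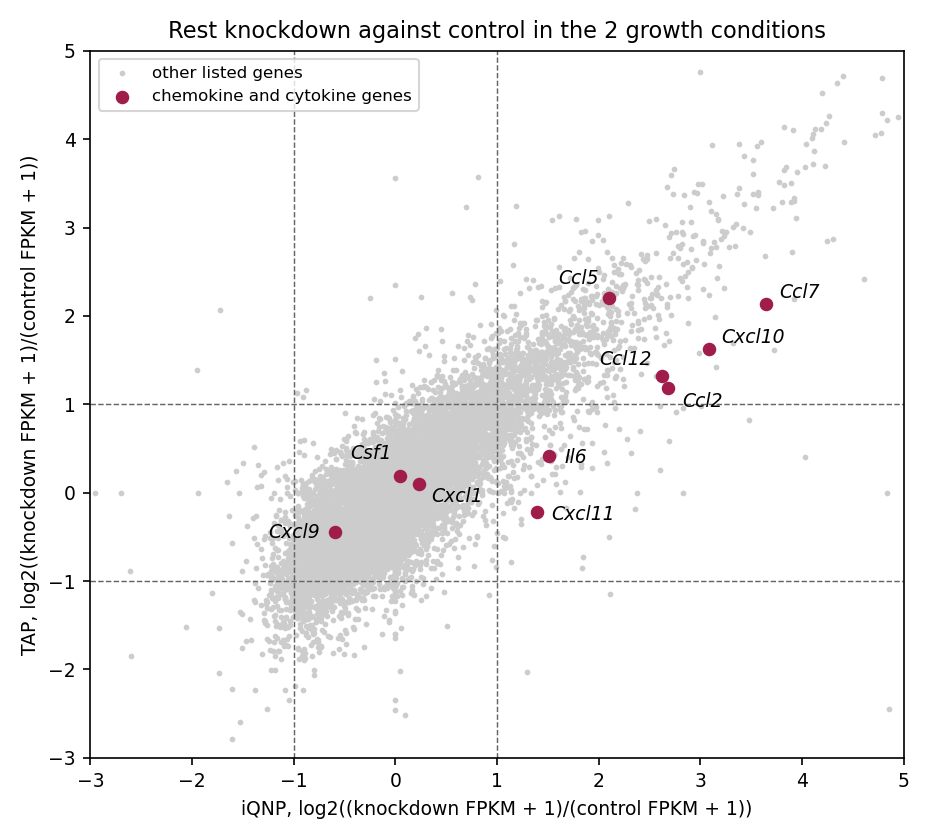
Log2 ratio of knockdown to control in iQNPs (x axis) and TAPs (y axis) for the 10 genes (red, named) and all other listed genes (grey); dashed lines mark log2 ratios of 1 and -1, and 80 genes lie outside the axes. Ccl5 sits near equal ratios, whereas Ccl2, Ccl12, Cxcl10, Ccl7, Il6 and Cxcl11 have the larger ratio in iQNPs on this scale (for Ccl7 not with a pseudocount of 0.1).

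The levels behind those ratios were set side by side across the conditions. The tables of iQNPs and TAPs may have been normalized separately, so a level in one may not be strictly on the scale of the other. In controls, Cxcl10 was 2.67-fold higher in TAPs than in iQNPs and Ccl5 was 2.32-fold lower. These were the 2 of 10 genes past 2-fold between controls on the log2(FPKM + 1) scale, beside 3.81% of listed genes higher in TAPs and 6.34% lower. Scaling the groups to the same sum took Ccl5 out of this count, and Cxcl10 stayed in it. Ccl2 was 1.71-fold higher in TAP controls than in iQNP controls, whereas Csf1 was 1.68-fold lower and Cxcl9 2.19-fold lower.

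After knockdown, 4 of 10 genes were 2-fold lower in TAPs than in iQNPs (Cxcl11, Ccl7, Ccl12 and Il6) and 0 were 2-fold higher, beside 5.72% and 2.47% of all listed genes. Ccl7 was 5.25-fold lower, Il6 5.65-fold, Ccl12 3.43-fold and Cxcl11 9.14-fold lower, all from TAP levels under 4 FPKM. Cxcl10 was at nearly the same level in both knockdown groups, with the iQNP level 1.04-fold the TAP level. So the smaller TAP ratio of Cxcl10 went with a higher control level, and that of Ccl12 and Il6, both listed at 0 in the 2 controls, with a lower knockdown level.

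The order of the 10 genes by level changed with knockdown. In iQNP controls it ran Cxcl10, Csf1, Ccl2, Ccl5, Cxcl9 and Cxcl1, with the other genes under 0.5 FPKM. In iQNP knockdown it ran Cxcl10, Ccl2, Ccl5, Csf1, Ccl7, Ccl12, Cxcl9, Cxcl11, Il6 and Cxcl1, all at 1 FPKM or more. In TAP controls 5 of 10 genes were at 1 FPKM or more, and in TAP knockdown 7 of 10. Of all 16468 listed genes, 9185 were at 1 FPKM or more in TAP controls, 9326 in TAP knockdown and 9626 in iQNP knockdown. Nothing is read from these counts, because the knockdown values were known when the genes were chosen. Without a spread between libraries, it could not be said which neighbours in these orders differ. The summed level of the 10 genes was 125 FPKM in iQNP controls and 679 FPKM in iQNP knockdown, and 196 FPKM in TAP controls and 546 FPKM in TAP knockdown.

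The receptors of these ligands were mostly scarce in the same cells. Of 13 receptor genes looked for, 11 were listed, and 8 of the 11 were under 1 FPKM in all 4 groups. Cxcr3, the receptor of Cxcl9, Cxcl10 and Cxcl11, did not exceed 0.12 FPKM, and Ccr2, the receptor of Ccl2, did not exceed 0.20 FPKM. Ccr1 and Ccr3, which bind Ccl5, were at most 0.32 and 0.45 FPKM. Cxcr1 and Cxcr2 were at most 0.24 and 0.23 FPKM, the scavenging receptor gene Ccbp2 at most 0.33 FPKM, and Csf1r, the receptor of Csf1, at most 0.15 FPKM.

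The exceptions were Il6st, Il6r and Cxcr7. Il6st, which encodes gp130, was at 79.6 FPKM in iQNP controls, 51.6 FPKM in iQNP knockdown, 76.3 FPKM in TAP controls and 49.0 FPKM in TAP knockdown, with log2 ratios of -0.61 and -0.63. Il6r was at 3.33, 3.14, 0.94 and 1.02 FPKM in the same order, with log2 ratios of -0.06 and 0.06. Cxcr7, an atypical receptor that binds Cxcl11 and Cxcl12, was at 5.45, 8.95, 4.86 and 5.08 FPKM, with log2 ratios of 0.63 and 0.05. Of the 11 receptor genes, 0 were 2-fold higher or lower in either condition, and their median log2 ratios were -0.06 and -0.16. All listed genes had shares of 8.57% and 8.93% higher, and 1.89% and 4.06% lower.

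**Figure D4:**
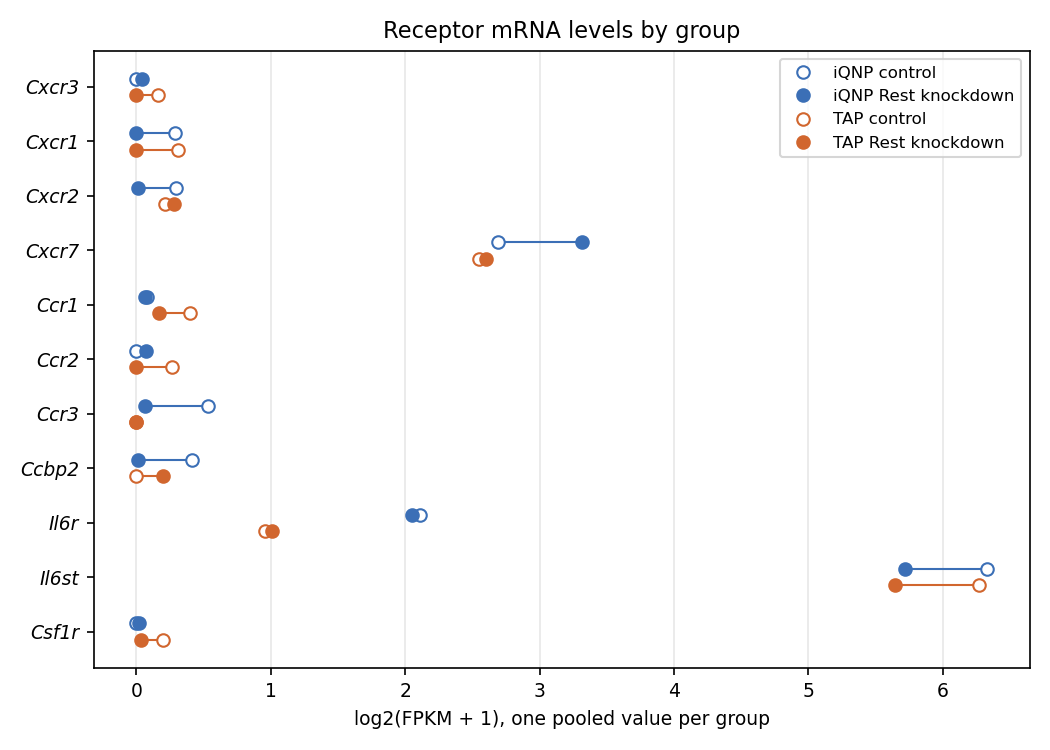
Levels of the 11 listed receptor genes as log2(FPKM + 1), with open circles for control and filled circles for REST knockdown in iQNPs (blue) and TAPs (orange); each point is the authors' single value for a group. Il6st, Cxcr7 and Il6r stand apart from the other 8 genes, which lie under 1 FPKM in each group.

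Few other chemokines were expressed. Of 27 listed, 21 were under 1 FPKM in all 4 groups, and their median log2 ratio was 0 in both conditions. In iQNPs 0 of 27 were 2-fold higher, and in TAPs 1 was, Ccl20, a ligand of Ccr6. The shares over all listed genes were 8.57% and 8.93%. Ccl20 was at 2.70 and 5.20 FPKM in iQNP control and knockdown and at 2.85 and 8.03 FPKM in TAP control and knockdown, with log2 ratios of 0.75 and 1.23. Cx3cl1, the ligand by which neurons signal to microglia, had log2 ratios of 0.56 and 0.84, Cxcl14 had -0.18 and 0.63, and Cxcl12 had 0.46 and -0.24. Cxcl16, picked out after its values were seen, had the highest level of the 27 in both iQNP groups. It was at 15.5 and 20.1 FPKM in iQNP control and knockdown and at 8.40 and 5.82 FPKM in TAP control and knockdown. Its log2 ratios were 0.35 and -0.46.

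Of 30 other cytokine genes listed, 3 in iQNPs and 4 in TAPs were 2-fold higher, and 1 was lower in each, with medians of 0.03 and 0. The shares over all listed genes were 8.57% and 8.93% higher, and 1.89% and 4.06% lower. Mif, a macrophage-directed cytokine, was at 308 and 987 FPKM in iQNP control and knockdown and at 531 and 1167 FPKM in TAP control and knockdown. Tgfb1, a growth-inhibiting cytokine, had log2 ratios of 1.10 and 1.28, and Il15, a cytokine of lymphocyte survival, had 0.16 and 1.21. Spp1, which encodes osteopontin, had -1.07 and 0.06. Ifnb1, which encodes interferon beta and was picked out after its values were seen, was listed at 0 in both controls, at 1.67 FPKM in iQNP knockdown and at 1.45 FPKM in TAP knockdown. Tnf and Il1b, leading inducers of inflammatory chemokines, were picked out likewise. Tnf was at 0.79 and 1.59 FPKM in iQNP control and knockdown and at 2.01 and 1.01 FPKM in TAP control and knockdown, and Il1b did not exceed 0.13 FPKM.

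Genes of the NF-kB pathway are read against the 8.57% of all listed genes that were 2-fold higher in iQNPs and the 8.93% in TAPs. Of 20 listed signalling genes, 1 in iQNPs and 3 in TAPs were 2-fold higher, and 0 and 1 were lower, with medians of -0.15 and -0.02. Traf2, an adaptor of TNF receptors, had log2 ratios of 1.22 and 1.52, the receptor gene Tnfrsf1a had 0.88 and 1.04, and the adaptor gene Myd88 had 0.63 and 1.07. Tab2, an adaptor of the kinase TAK1, had -0.82 and -1.08. Of 18 listed feedback and response genes, 1 was 2-fold higher in iQNPs and 0 in TAPs, and 0 and 1 were lower, with medians of 0.12 and 0.02. Cebpb, a transcription factor of inflammatory genes, had log2 ratios of 1.54 and 0.68, the antioxidant enzyme gene Sod2 had 0.88 and 0.53, Tnip1, an inhibitor of the pathway, had -0.22 and -1.17 and Nfkbib had 0.28 and -0.59. Nfkbia, the feedback inhibitor that NF-kB induces, was picked out after its values were seen and had log2 ratios of -0.03 and -0.09. Others picked out likewise were mixed. Nfkb2 had 0.69 and 0.92, Birc3 0.49 and 0.45 and Nfkbie 0.09 and 0.50. Nfkbiz had 0.14 and 0.01 and Vcam1 -0.08 and 0.12.

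In the interferon pathway, 5 of 14 listed genes were 2-fold higher in each condition and 0 were lower, with medians of 0.63 and 0.31. Over all listed genes, 8.57% in iQNPs and 8.93% in TAPs were 2-fold higher. The list was drawn up with earlier results known, so nothing is read from its share. Irf7, a transcription factor of interferon genes, was at 15.8 and 167 FPKM in iQNP control and knockdown and at 54.3 and 178 FPKM in TAP control and knockdown. Its pattern resembles that of Cxcl10, with a control level higher in TAPs and knockdown levels close together. Socs1, a feedback inhibitor of cytokine signalling, had log2 ratios of 3.11 and 3.19, Stat2 had 1.44 and 1.10, and Usp18, which restrains interferon signalling, had 1.53 and 0.36.

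Among 13 listed genes of gp130 and STAT3 signalling, 1 in iQNPs and 2 in TAPs were 2-fold higher and 1 was lower in each, with medians of -0.04 and 0.01. All listed genes had shares of 8.57% and 8.93% higher, and 1.89% and 4.06% lower. Socs3, the feedback inhibitor of Il6 signalling, had log2 ratios of 0.75 and 2.18, the early response gene Junb had 1.67 and 1.40, Lifr had -1.20 and -0.51 and Myc had -0.20 and -1.17. Of 9 listed genes of cytokine mRNA decay, 0 were 2-fold higher or lower in either condition, beside the same shares, with medians of 0.08 and 0.16. Mapkapk2, a kinase that stabilizes cytokine mRNAs, had log2 ratios of 0.64 and 0.80, Zfp36l2 had 0.51 and 0.66, Zc3h12a had 0.15 and 0.44 and Mapk14 had -0.02 and 0.37.

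The genes with the pattern over the 4 groups nearest to that of a chemokine were sought for Cxcl10, Ccl2 and Ccl5 among 9965 other genes, by the Euclidean distance between their 4 values of log2(FPKM + 1) after the mean of each gene was removed. Nearest to Cxcl10 were RGD1560394 (distance 0.29), Irf7 (0.30) and Oas1a (0.32), the last encoding an antiviral enzyme induced by interferon. Oas1a was at 38.3, 347, 104 and 418 FPKM in iQNP control, iQNP knockdown, TAP control and TAP knockdown. Nearest to Ccl2 were the glycolysis gene Pgk1 (distance 0.40), G7c (0.41) and the exosome gene Exosc4 (0.43). Nearest to Ccl5 were Klhl21 (0.07), the chondroitin synthesis gene Chpf (0.10) and LOC100360501 (0.12). With 4 values per gene, such likeness is a description.

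Leukocytes and vascular cells are usual sources of these chemokines, and their marker genes were checked in the same groups. Of 19 microglia and leukocyte markers, all listed, 15 were under 1 FPKM in all 4 groups, and the median log2 ratios were 0.02 and -0.04. Among the defining markers, Aif1, Itgam, Ptprc and Tmem119, picked out after their values were seen, did not exceed 0.06, 0.05, 0.08 and 0.25 FPKM, and Aif1 was listed at 0 in both TAP groups and in iQNP controls. The microglial receptor gene P2ry12 was the exception, at 4.52 FPKM in iQNP controls, 3.67 FPKM in iQNP knockdown, 16.3 FPKM in TAP controls and 7.58 FPKM in TAP knockdown, with log2 ratios of -0.24 and -1.02. The summed level of the 19 was 16.5 FPKM in iQNP controls and 20.3 FPKM in iQNP knockdown, and 25.0 FPKM in TAP controls and 17.9 FPKM in TAP knockdown. P2ry12, Cd68 and Ctss were above 1 FPKM in each group, and Cd14 in the iQNP groups only. Ctss, a lysosomal protease, was higher with knockdown, with log2 ratios of 1.36 and 1.02. Cd68 had -0.41 and -0.03 and Cd14 had 0.20 and 0.29.

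The summed level of 7 listed endothelial markers was between 0.32 and 1.68 FPKM. The 8 listed fibroblast and mural markers summed to 13.4 and 33.2 FPKM in iQNP control and knockdown and to 1.10 and 2.16 FPKM in TAP control and knockdown. Most of this was Tagln, an actin-binding protein gene with log2 ratios of 1.34 and 1.17, except in TAP controls, where Tagln was at 0.22 FPKM. Col1a1 and Col3a1 did not exceed 0.77 and 0.04 FPKM. Pdgfrb, of the same list, was at 0.57 and 1.34 FPKM in iQNP control and knockdown, with a log2 ratio of 0.58. In TAPs Pdgfrb did not exceed 0.19 FPKM. Astrocyte markers summed to 587 and 542 FPKM in iQNPs and 400.4 and 399 FPKM in TAPs, mostly S100b. Gja1 had log2 ratios of -0.79 and -1.06, Gfap had 0.15 and 0.20, Slc1a2 had -0.37 and -0.11 and Slc1a3 had -0.01 and 0.11. Among neural stem cell markers, Hes1 had log2 ratios of 0.94 and 1.37, Msi1 0.47 and 1.26 and Pax6 -0.83 and -0.33. Hes5 had 1.21 and 0.53, from an iQNP control listed at 0 and marked as too low for the authors' test. The median log2 ratios of the 10 neural stem cell markers were -0.02 and -0.01. The part of Ctss, Tagln and Pdgfrb in the chemokine levels was not tested.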

How the data were processed

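RNA-seq of HCN cells was taken from 2 deposited tables, 1 for iQNPs and 1 for TAPs. The authors mapped reads to rat rn4 with TopHat2 and ran Cuffdiff, and deposited 1 FPKM per gene and group. Versions are not given in the sources used here. The tables also hold the authors' fold changes, test statistics, p-values and q-values, which were not used. Their status column was used to mark values too low for their test.

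Groups came from the labels. Group values were compared as log2((FPKM + 1)/(FPKM + 1)) over all 16468 genes, with 2-fold as the mark for counts and no test, since there was 1 value per group. The calculation was tested on simulated data. The 10 genes and the gene lists were chosen with earlier results of these data known. Named were the 10 genes, Rest, their receptors, up to 4 genes per list with a mean of at least 1 FPKM and the largest log2 ratio, genes within 100 kb, and the 3 nearest patterns for each of 3 genes. Cxcl16, Ifnb1, Tnf, Il1b, Nfkbia, Nfkb2, Birc3, Nfkbie, Nfkbiz and Vcam1 were named outside the rule, after their values were seen. So were further marker genes (Sox2, Vim, Nes, Prom1, S100b, Aif1, Itgam, Ptprc, Tmem119, Col1a1, Col3a1 and Pdgfrb), and Mcl1 and Khsrp. Promoters came from RefSeq (GRCr8). Some list genes are not reported here and were left out of the list counts. Nfkb1, Relb, Rel, Tnfaip3, Csf2, Ifnar2 and Tyk2 were not analysed here. Python 3.11.15, numpy 2.4.6, pandas 2.3.3 and matplotlib 3.10.9 were used.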

Additional observations from a re-analysis of the deposited data

Results flagged for a closer look

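Nfkbib, an inhibitor of NF-kB, differed in direction between the growth conditions, with a log2 ratio of knockdown to control of 0.28 in iQNPs and -0.59 in TAPs. The difference was not tested, because each group had a single value. It did not hold with the groups scaled to the same sum of FPKM, where the log2 ratios were -0.23 and -1.18, and with the same sum without ribosomal protein genes the iQNP value was 0.09 (both scalings of Nfkbib were added after seeing the data). As reported, 0 of the 10 chemokine and cytokine genes differed in direction with both log2 ratios at least 0.25 in size. Cxcl11, with log2 ratios of 1.39 and -0.21 as reported, did so with a pseudocount of 0.1 (2.59 and -0.63), with the same sum (1.15 and -0.39) and with the same sum without ribosomal protein genes (1.30 and -0.26), from TAP levels under 0.5 FPKM.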

How the results depend on the processing

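Each of the 10 genes that was 2-fold higher as reported kept its direction under each alternative run, but much of this was fixed in advance. No pseudocount or scaling could turn the genes listed at 0 in a control, Ccl12 and Il6 in iQNPs and Ccl7 and Ccl12 in TAPs. The other fold marks and the FPKM minimum leave each ratio as it is. The median log2 ratio of the 10 genes was 2.66 in iQNPs and 1.42 in TAPs with a pseudocount of 0.1 and 1.48 and 0.47 with the groups scaled to the same sum of FPKM. With a mean of at least 1 FPKM it was 2.10 and 1.40, but this minimum raises the median by itself, since Ccl12, Ccl7 and Cxcl11 in iQNPs and Ccl7 in TAPs passed it only through their knockdown values. With the same sum, Csf1 had log2 ratios of -0.47 and -0.39 and Cxcl1 had -0.07 and -0.19, so that the sign of these small differences turned. At that scaling 4.83% of all listed genes were 2-fold higher and 12.9% lower in iQNPs, and 4.24% and 15.8% in TAPs. Of the 10 genes, 5 in iQNPs and 2 in TAPs (Ccl5 and Ccl7) were 4-fold higher, beside 2.42% and 2.33% of all listed genes. With a pseudocount of 0.1, 7 of the 10 genes in iQNPs and 6 in TAPs were 2-fold higher, Il6 joining in TAPs (log2 ratio 2.10). The share of all listed genes was not computed at that pseudocount, so nothing is read from these counts. There the log2 ratio of Ccl7 turned from smaller to larger in TAPs than in iQNPs, by 0.21, a comparison added after seeing the data. Leaving out genes listed at 0 in a control, an alternative chosen after seeing the data, left 3 genes 2-fold higher in TAPs and a median of 0.19. Between the controls of TAPs and iQNPs, the count of 2 genes became 4 with the smaller pseudocount, 1 with the same sum, 1 with the same sum without ribosomal protein genes, 5 at 1.5-fold and 0 at 4-fold. No paired analysis was possible because each group had 1 pooled value, and for the same reason leaving out replicates was not run. Levels under 1 FPKM, as for Il6 and Cxcl11 in TAPs, limit what can be said of those genes.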
